A study of Mus musculus with 10 samples.

Results

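Ketone bodies are made in liver mitochondria from the acetyl-CoA that fatty acid oxidation yields, and are burned in other tissues. Measured here were 6 genes of ketone body synthesis, use and export in mouse liver. They were chosen by name and found by matching the Ensembl identifiers of the count tables to the symbols Acat1, Bdh1, Bdh2, Oxct1, Aacs and Slc16a1. They are 6 of 41388 listed genes, and all 6 passed the filter on low counts. Polyadenylated RNA of whole liver was sequenced from C57B/6J mice aged 12 weeks, with 1 library per mouse, and 10 libraries were analysed. The WT Refed group (n = 2) was fasted for 22 h and refed for 2 h, and the WT Fasting group (n = 3) and the NAMPT LKO Fasting group (n = 5) were fasted for 24 h, all on aspen bedding. These times are those of the sample labels. The study describes the WT control group as random-fed and the fast as shorter, and the labels were followed here. NAMPT LKO mice carried Nampt LoxP/LoxP alleles and Albumin-cre, which is active in hepatocytes, and the WT mice were their littermates (NAMPT fl/fl in the naming of the study). Nampt in the other cells of the liver is not targeted by this Cre. The labels give no litter, cage or day, and p-values measure the spread between these libraries.

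In hepatocytes, Acat1 joins acetyl-CoA into acetoacetyl-CoA, from which acetoacetate is made, and Bdh1 reduces acetoacetate to β-hydroxybutyrate in an exchange with NADH. Monocarboxylate carriers such as Slc16a1 move the products across the plasma membrane. Oxct1 reactivates acetoacetate for oxidation in heart, muscle and brain and is known for its near absence from hepatocytes, whereas Aacs activates acetoacetate in the cytosol for sterol and fatty acid synthesis. Nampt is the rate-limiting enzyme of NAD salvage from nicotinamide.

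The targeted gene was examined first. Levels are given as CPM, the counts of a gene scaled to the total of its library, with the trimmed mean of M values (TMM) as the scaling factor. Nampt stood at 78.0 and 67.8 CPM in the WT Refed livers, at 63.0, 73.4 and 141 CPM in the WT Fasting livers, and at 12.1, 14.0, 11.8, 12.5 and 15.3 CPM in the NAMPT LKO Fasting livers. Every NAMPT LKO liver was below every WT liver. The fall relative to WT Fasting was -2.81 on the log2 scale (SE 0.22), with an adjusted p of 0.00102 by edgeR's quasi-likelihood test with Benjamini-Hochberg adjustment. The exact two-sided permutation p over the 56 splits of these 8 libraries was 0.0179, the smallest they allow. WT Fasting liver 3 had the highest Nampt level of the 10. Hepatocyte markers were high in every library, with all 5 detected and a summed level of 64462 to 115395 CPM. Bile duct markers summed to 15.2 to 22.4 CPM in WT livers and to 34.0 to 54.5 CPM in NAMPT LKO livers. None of the 5 was called between NAMPT LKO Fasting and WT Fasting, and 2 were called higher in NAMPT LKO Fasting than in WT Refed. In the latter comparison 1 of 6 stellate cell markers and 1 of 6 endothelial markers were also called higher, and no marker of the other 8 lists was called in any comparison. Of these lists, adipose, exocrine pancreas and skeletal muscle had no marker above the filter, so no call was possible. Only 1 of 3 neutrophil markers and 2 of 5 T and B cell markers were tested. The mean log2(CPM + 1) of the stellate cell markers was 3.58 to 3.84 in the 5 WT livers and 3.87 to 4.30 in the 5 NAMPT LKO livers, without overlap, while their summed levels overlapped (175 to 228 CPM and 212 to 282 CPM). The endothelial sums were 176 to 217 CPM and 183 to 239 CPM. Kupffer cell markers reached their highest sum, 370 CPM, in WT Fasting liver 3, against 124 to 293 CPM elsewhere. Adipose, exocrine pancreas and skeletal muscle markers each summed to under 1 CPM, with Cpa1 at 0 in every library. NAMPT LKO liver 5 stood apart by a mitochondrial share of 21.1% of its counts, against 7.42% to 12.9% in the other 9. The part of these differences in the results on the ketone body genes was not tested. In whole liver, fewer cells of a type and less RNA per cell cannot be told apart.

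Of the 6 genes, the difference between fasted and refed livers passed the test for Aacs alone. Aacs was lower in fasted than in refed WT mice, and lower in fasted NAMPT LKO mice than in refed WT mice. The genes of mitochondrial synthesis were abundant in every liver, and none of their differences passed the test. No member was called between NAMPT LKO Fasting and WT Fasting. The plot of member levels by liver shows all of these values.

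**Figure D1:**
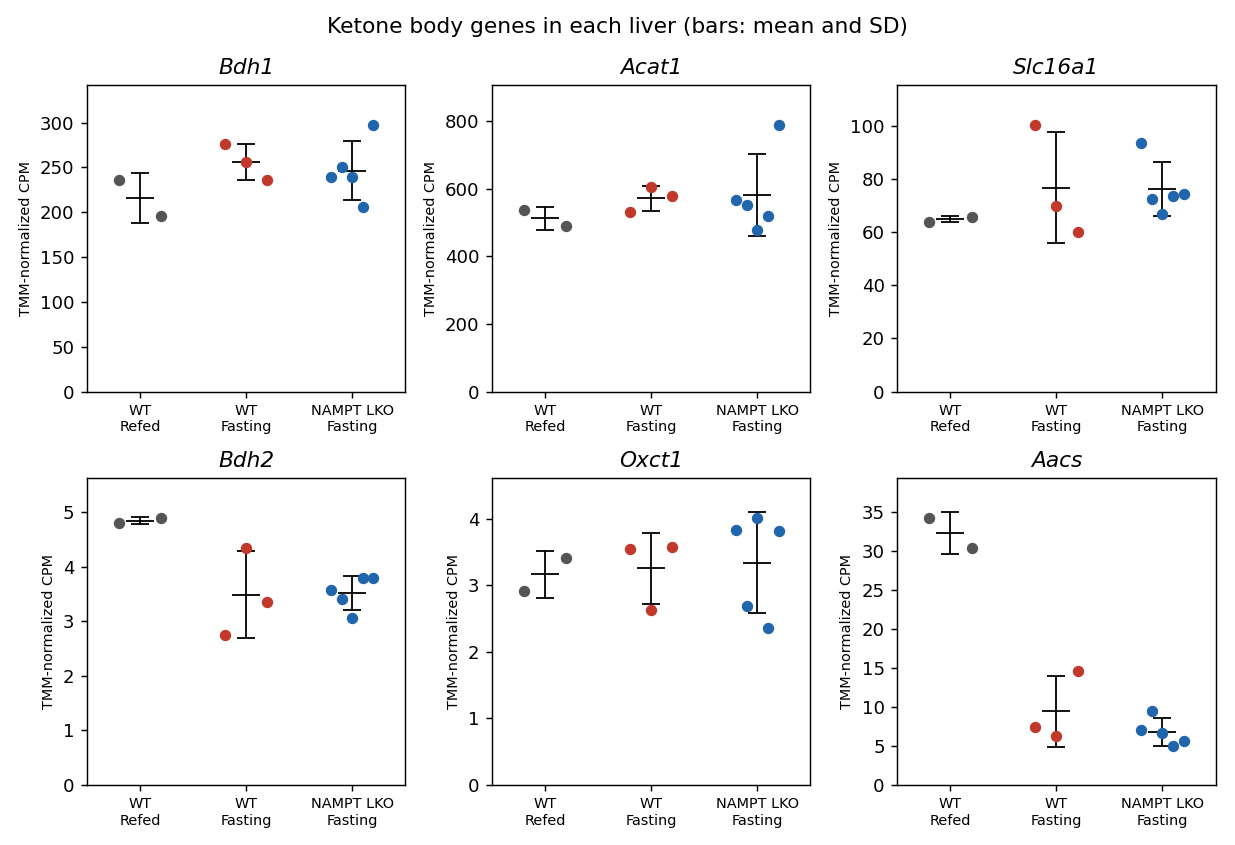
Level of each ketone body gene in each liver, in TMM-normalized CPM on linear axes from 0; points are single livers (2 WT Refed, 3 WT Fasting, 5 NAMPT LKO Fasting), and the bars give the group mean and SD. Aacs is the gene whose refed livers (30.4 and 34.2 CPM) lie farthest above all fasted livers (4.94 to 14.6 CPM).

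In WT Fasting relative to WT Refed, 1 of the 6 ketone body genes was called, Aacs, and it fell. Of all 13444 genes tested, 7.04% were called, 2.68% as higher and 4.36% as lower. The groups did not overlap for 3 members, Bdh1 higher and Bdh2 and Aacs lower, against 49.7% of all genes (24.5% higher and 25.1% lower). An unadjusted p under 0.05 was found for 2 members, Bdh2 and Aacs, against 22.3% of all genes. The median log2 difference over the 6 members was 0.10, against 0.04 over all genes.

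Aacs was also the 1 member called in NAMPT LKO Fasting relative to WT Refed, as lower. Of all genes 11.2% were called in this comparison, 4.65% as higher and 6.58% as lower. The groups did not overlap for Slc16a1, which was higher, and for Bdh2 and Aacs, which were lower, against 33.5% of all genes (15.7% higher and 17.8% lower). Bdh2 and Aacs had an unadjusted p under 0.05, against 26.1% of all genes. The members' shares were thus not far from those of all genes, and both comparisons use the same 2 refed livers.

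Relative to WT Fasting, no member was called in NAMPT LKO Fasting by the quasi-likelihood test. None of the 6 had an unadjusted p under 0.05, and edgeR's exact test, limma voom and DESeq2 called none. Of all genes, 0.00744% were called, which was Nampt itself, and 6.03% had an unadjusted p under 0.05. All 6 members overlapped between these groups, where 3.99% of all genes did not overlap (1.87% higher and 2.12% lower). The log2 differences ran from -0.48 (Aacs) to 0.04 (Oxct1), and the 5 members other than Aacs lay within 0.06 of 0. The 95% intervals of Bdh1, Acat1, Slc16a1 and Bdh2 in this comparison stayed within 0.77 to 1.33 times the WT Fasting level. The plot of fold changes sets the 3 comparisons side by side.

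**Figure D2:**
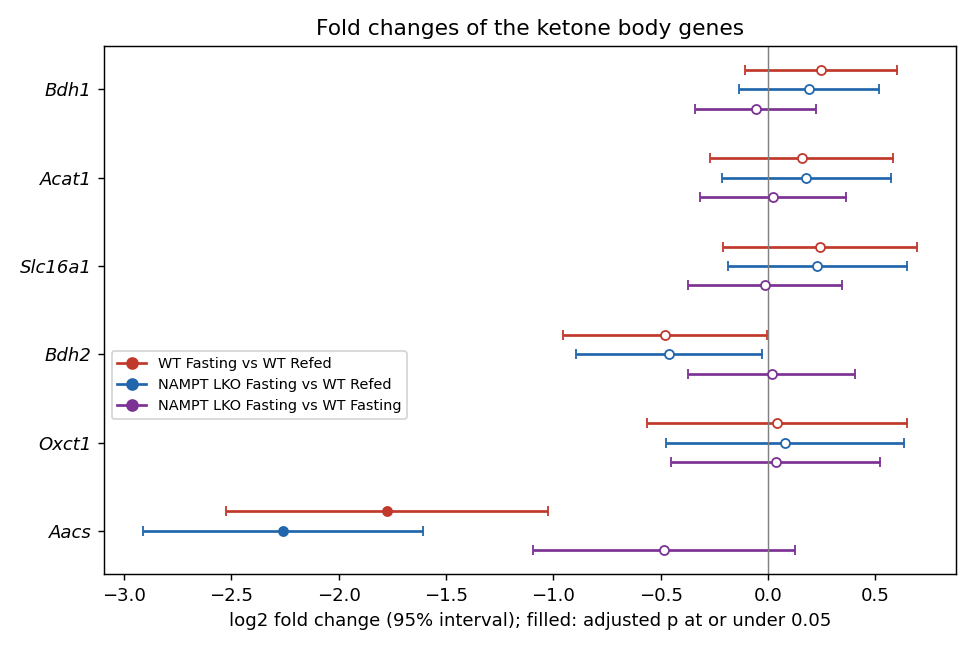
Log2 fold change of each ketone body gene with its 95% interval in 3 comparisons, from edgeR's quasi-likelihood fit on 10 livers; filled points have an adjusted p at or under 0.05. The filled points are Aacs relative to WT Refed, at -1.77 and -2.26, and 14 of the 16 other intervals include 0.

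Between genes, levels were compared per length, as TMM-scaled RPKM, in which CPM are divided by the exon length in kilobases. The mean over the 10 livers was 150.1 RPKM for Acat1, 64.0 RPKM for Bdh1, 16.7 RPKM for Slc16a1, 3.45 RPKM for Aacs, 3.14 RPKM for Bdh2 and 0.886 RPKM for Oxct1. The ranges of Acat1 (127 to 210 RPKM), Bdh1 (51.6 to 78.2 RPKM) and Slc16a1 (13.6 to 22.7 RPKM) did not overlap, and Oxct1 (0.638 to 1.08 RPKM) lay below every other member. In the refed livers Aacs was at 8.29 and 9.32 RPKM, above Bdh2 at 3.99 and 4.07 RPKM. In the fasted livers the 2 genes overlapped, Aacs ranging from 1.35 to 3.99 RPKM and Bdh2 from 2.29 to 3.61 RPKM.

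The RPKM ratio of Bdh1 to Oxct1 was 56.0 to 94.5. In each liver the RNA of Bdh1 thus exceeded that of Oxct1 per length by more than an order of magnitude. Enzyme amounts were not measured.

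**Figure D3:**
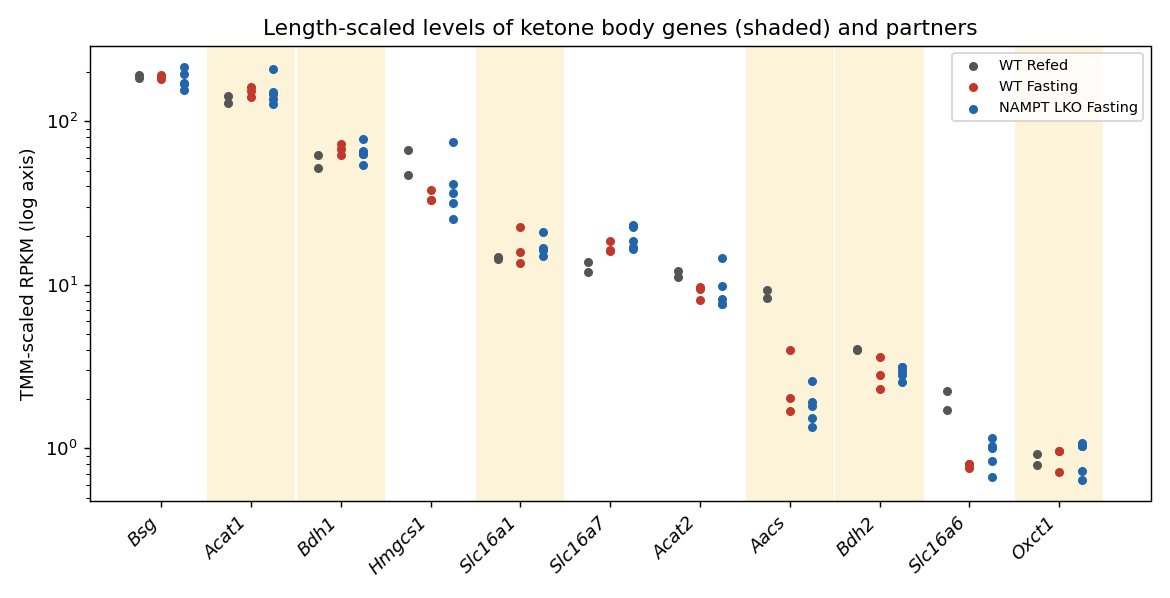
TMM-scaled RPKM of the ketone body genes (shaded columns) and of their partners on a log axis, with 1 point per liver coloured by group. Acat1 is at 127 RPKM or more in every liver and Oxct1 at 1.08 RPKM or less, and among the genes plotted both refed livers lie above all 8 fasted livers for Aacs, Bdh2 and Slc16a6.

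Acat1 (chromosome 9, 53580522 to 53610382, minus strand, GRCm38) encodes the mitochondrial acetoacetyl-CoA thiolase. Its level was 536 and 488 CPM in WT Refed livers, 531, 606 and 577 CPM in WT Fasting livers and 566, 551, 478, 518 and 788 CPM in NAMPT LKO Fasting livers. The groups overlapped in all 3 comparisons, and NAMPT LKO liver 5 was the highest of the 10. The log2 difference was 0.16 between WT Fasting and WT Refed (SE 0.19, 95% interval -0.27 to 0.58) and 0.02 between NAMPT LKO Fasting and WT Fasting (SE 0.15, -0.32 to 0.36). In edgeR's quasi-likelihood test the adjusted p was 0.683 and 0.981. The second interval allows between 0.803 and 1.29 times the WT Fasting level.

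Its cytosolic counterpart, Acat2, which supplies acetoacetyl-CoA to sterol synthesis, was far lower. The RPKM ratio of Acat1 to Acat2 was 11.6 and 11.8 in the refed livers, 15.7 to 17.5 in WT Fasting livers and 14.4 to 18.0 in NAMPT LKO Fasting livers. The 8 fasted livers were all above both refed livers in this ratio. Neither gene was called on its own. Of all single genes, 49.7% did not overlap between WT Fasting and WT Refed, and 33.5% between NAMPT LKO Fasting and WT Refed. The share of other gene ratios that separate was not examined. Acat2 was 29.6 ± 1.62 CPM in WT Refed (SD, n = 2) and 23.1 ± 2.22 CPM in WT Fasting (n = 3), a log2 difference of -0.36 (SE 0.25).

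Bdh1 (chromosome 16, 31422280 to 31458901, plus strand) encodes the mitochondrial β-hydroxybutyrate dehydrogenase. It was at 235 and 196 CPM in WT Refed, 277, 256 and 236 CPM in WT Fasting and 239, 251, 239, 206 and 297 CPM in NAMPT LKO Fasting livers. The lowest WT Fasting liver (236.2 CPM) was just above the highest refed liver (235.4 CPM), so these groups did not overlap, while the NAMPT LKO Fasting group overlapped both. The log2 difference of WT Fasting from WT Refed was 0.25 (SE 0.16, 95% interval -0.11 to 0.60, adjusted p = 0.402 in edgeR's quasi-likelihood test). The difference of NAMPT LKO Fasting from WT Fasting was -0.06 (SE 0.13, -0.34 to 0.23, adjusted p = 0.943), which allows 0.791 to 1.17 times the WT Fasting level. Bdh1 shares 533 exon bases with an antisense gene, Gm15743, which had 11 to 51 counts per library against 7386 to 11547 for Bdh1. The strand setting of the counting is not given in the sources used here.

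Bdh2 (chromosome 3, 135281221 to 135304426, plus strand) encodes a cytosolic dehydrogenase of the same reaction. Only 106 to 214 reads per library were counted. Its level was 4.80 and 4.89 CPM in WT Refed, 2.75, 4.34 and 3.35 CPM in WT Fasting and 3.57, 3.40, 3.05, 3.80 and 3.78 CPM in NAMPT LKO Fasting livers. Both refed livers were above all 8 fasted livers. The difference of WT Fasting from WT Refed was -0.48 on the log2 scale (SE 0.22, 95% interval -0.95 to -0.0018), and that of NAMPT LKO Fasting from WT Refed was -0.46 (SE 0.20, -0.89 to -0.03). Neither passed adjustment in edgeR's quasi-likelihood test (adjusted p = 0.222 and 0.165), although the second did with limma's voomWithQualityWeights (-0.50, adjusted p = 0.0303). NAMPT LKO Fasting and WT Fasting livers overlapped, with a difference of 0.02 (SE 0.18, -0.37 to 0.41). The RPKM ratio of Bdh1 to Bdh2 was 12.7 and 15.5 in the refed livers, 18.6 to 31.8 in WT Fasting livers and 17.1 to 24.9 in NAMPT LKO Fasting livers, higher in every fasted liver than in both refed livers. Of all single genes, 49.7% (WT Fasting) and 33.5% (NAMPT LKO Fasting) did not overlap with these refed livers. How often other gene pairs separate in this way was not examined.

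Oxct1 (chromosome 15, 4026383 to 4155344, plus strand), which transfers CoA from succinyl-CoA to acetoacetate, was counted 84 to 168 times per library. It was at 2.91 and 3.41 CPM in WT Refed, 3.54, 2.64 and 3.58 CPM in WT Fasting and 3.83, 2.69, 4.01, 2.36 and 3.81 CPM in NAMPT LKO Fasting livers. The 3 groups overlapped. The difference of WT Fasting from WT Refed was 0.04 on the log2 scale (SE 0.27, 95% interval -0.56 to 0.65), and that of NAMPT LKO Fasting from WT Fasting was 0.04 (SE 0.22, -0.45 to 0.52). The second interval allows 0.732 to 1.44 times the WT Fasting level, the widest of the members other than Aacs. Oxct1 shares 467 exon bases with BC037032 on the other strand, which had 0 to 7 counts.

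Aacs (chromosome 5, 125475814 to 125517410, plus strand) encodes the cytosolic acetoacetyl-CoA synthetase. Its level was 34.2 and 30.4 CPM in WT Refed, 7.40, 6.20 and 14.6 CPM in WT Fasting and 7.04, 9.52, 6.68, 4.94 and 5.59 CPM in NAMPT LKO Fasting livers. All 8 fasted livers were below both refed livers, and WT Fasting liver 3 was the highest of the fasted livers. Aacs fell by 1.77 on the log2 scale in WT Fasting relative to WT Refed (SE 0.34, 95% interval -2.52 to -1.03, adjusted p = 0.0118 in edgeR's quasi-likelihood test), that is to 0.292 of the refed level. The log2 difference of NAMPT LKO Fasting from WT Refed was -2.26 (SE 0.30, -2.91 to -1.61, adjusted p = 0.00125), that is 0.209 of the refed level. The second comparison differs in both genotype and feeding, which cannot be told apart, and both use the same 2 refed livers. With either refed liver left out, the fall in WT mice kept its size (-1.70 and -1.86) but its adjusted p was 0.0886 and 0.0760.

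Between NAMPT LKO Fasting and WT Fasting, Aacs overlapped and differed by -0.48 on the log2 scale (SE 0.28, 95% interval -1.09 to 0.13, adjusted p = 0.837 in edgeR's quasi-likelihood test). This value kept its sign under all 22 alternatives and was called in none, but its size depended on single libraries. It was -0.71 without WT Fasting liver 2 and -0.64 without NAMPT LKO liver 2 (adjusted p = 0.901 and 0.895 in the same test). Without WT Fasting liver 3 it was -0.01 (adjusted p = 0.997), and the fall in WT mice was then -2.25 (adjusted p = 0.00221). WT Fasting liver 3 was also the liver with the highest Nampt and the highest Kupffer cell marker sum, and the part of these in its Aacs level was not tested.

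The sequence upstream of Aacs is shown because Aacs is the member called relative to WT Refed in the main test. That upstream of Slc16a1 is shown as the carrier of the pathway. Both are RefSeq sequences of GRCm38.p6, plus strand, 5′ to 3′, and end just before the annotated gene. RefSeq windows were matched for 5 of the 6 members. The capitals mark the forkhead core TGTTTAC, read on the opposite strand in Aacs, and the E-box CACGTG in Slc16a1, which lie 237 and 200 bases before the RefSeq start of each gene.
Aacs, chr5:125475623-125475813: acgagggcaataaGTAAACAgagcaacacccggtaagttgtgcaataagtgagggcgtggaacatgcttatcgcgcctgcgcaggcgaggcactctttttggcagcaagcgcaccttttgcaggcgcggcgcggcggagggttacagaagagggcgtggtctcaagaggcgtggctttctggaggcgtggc
Slc16a1, chr3:104638414-104638663: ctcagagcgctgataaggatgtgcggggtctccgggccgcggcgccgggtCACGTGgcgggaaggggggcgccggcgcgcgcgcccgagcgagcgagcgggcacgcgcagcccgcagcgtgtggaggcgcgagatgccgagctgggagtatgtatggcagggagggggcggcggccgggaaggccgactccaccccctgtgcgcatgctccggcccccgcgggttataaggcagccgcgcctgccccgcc
The GC content was 59.2% in the 191 bases of Aacs and 76.4% in the 250 bases of Slc16a1. Over 32851 RefSeq windows of 300 bases and both strands, TGTTTAC was found in 3.65% and CACGTG in 7.15%. The sterol regulatory element and the PPAR element, each searched in 1 spelling that 0.0913% and 0.0396% of windows hold, had no match in the members' windows. A match is a description of the letters and not of a bound site.

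Aacs was next set beside the 14 listed genes of cytosolic acetoacetyl-CoA use and sterol synthesis. In WT Fasting relative to WT Refed, all 14 estimates were below 0, with a median log2 difference of -0.998 against 0.04 over all genes. Of the 14, 5 were called lower and none higher, against 4.36% and 2.68% of all genes. The largest falls that passed the test were in Mvd, a decarboxylase of the mevalonate pathway (31.5 to 3.69 CPM, -3.09, SE 0.47, adjusted p = 0.00402 in edgeR's quasi-likelihood test), and in Fdps, which makes farnesyl diphosphate (101 to 24.7 CPM, -2.03, SE 0.45, adjusted p = 0.0207). Of all genes, 6.58% were called lower in NAMPT LKO Fasting relative to the same refed livers. In that comparison 6 of the 14 were called lower and none higher, with a median of -0.996. Mvd (-3.05, SE 0.39) and Sqle, the squalene epoxidase (-2.25, SE 0.58), were the largest. Between NAMPT LKO Fasting and WT Fasting none of the 14 was called and the median was 0.07. The list ran from -0.21 to -3.09 in WT Fasting and from -0.23 to -3.05 in NAMPT LKO Fasting, each relative to WT Refed. Aacs lay inside this wide range in both comparisons. The list was chosen with earlier results of these data known, so this does not test whether Aacs goes with these genes. In the plot of the sterol genes by liver, Aacs was low in NAMPT LKO liver 5 (5.59 CPM), where Hmgcs1 was at its highest of the 10, 242 CPM.

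**Figure D4:**
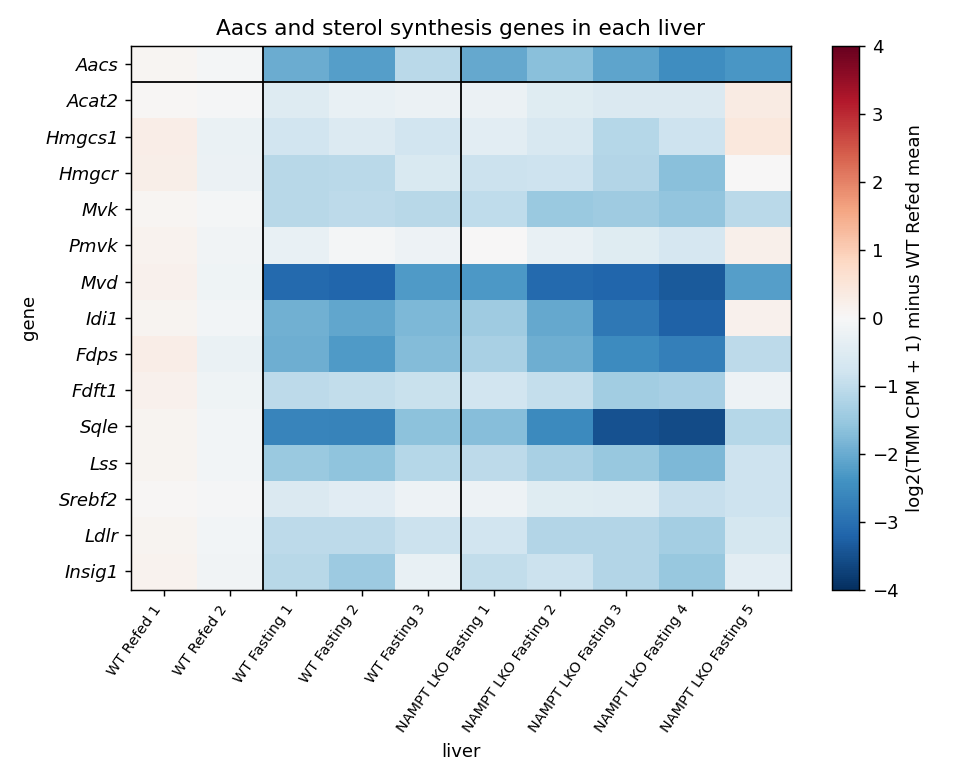
Colour gives log2(TMM CPM + 1) minus the mean of the WT Refed livers for Aacs (top row) and 14 sterol synthesis genes, with 1 column per liver and vertical lines between groups. Aacs, Mvd, Fdps and Sqle are blue, below the refed mean, in all 8 fasted livers, and the deepest value is -3.57.

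Fatty acid synthesis, the other use of cytosolic acetoacetyl-CoA, was represented by 6 genes. In WT Fasting relative to WT Refed none was called, against 7.04% of all genes, and the median was -0.23 against 0.04 over all genes. In NAMPT LKO Fasting relative to WT Refed 1 of the 6 was called, against 11.2% of all genes. This was Fasn, the fatty acid synthase (-0.94, SE 0.27, adjusted p = 0.0455 in edgeR's quasi-likelihood test). In WT mice Fasn averaged 163 CPM refed and 93.9 CPM fasted, a log2 difference of -0.79 with an adjusted p of 0.148.

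Slc16a1 (chromosome 3, 104638668 to 104658462, plus strand) carries lactate, pyruvate and ketone bodies with protons. Its level was 64.0 and 65.8 CPM in WT Refed, 100.3, 69.9 and 60.02 CPM in WT Fasting and 93.5, 72.5, 66.7, 73.7 and 74.3 CPM in NAMPT LKO Fasting livers. The WT Fasting livers lay on both sides of the refed pair, with liver 1 highest and liver 3 lowest of the 10. All 5 NAMPT LKO livers were above both refed livers. The difference of WT Fasting from WT Refed was 0.24 on the log2 scale (SE 0.20, 95% interval -0.21 to 0.69), that of NAMPT LKO Fasting from WT Refed was 0.23 (SE 0.19, -0.18 to 0.65), and that of NAMPT LKO Fasting from WT Fasting was -0.01 (SE 0.16, -0.37 to 0.35). In edgeR's quasi-likelihood test the adjusted p was 0.529, 0.490 and 0.993. Without WT Fasting liver 1 the last difference was 0.23, and without WT Fasting liver 3 it was -0.16, so its sign rested on single livers.

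Of the 8 other carriers and chaperones that were tested, 2 were called lower and none higher in WT Fasting relative to WT Refed. Of all genes, 4.36% were called lower and 2.68% higher. Of the 8 estimates, 5 were below 0 and 3 above. Slc16a6, a carrier for which β-hydroxybutyrate export from liver has been described, was at 8.38 and 10.9 CPM in the refed livers, at 3.90, 3.72 and 3.92 CPM in WT Fasting livers and at 5.67, 3.27, 4.10, 5.02 and 4.88 CPM in NAMPT LKO Fasting livers. All 8 fasted livers were below both refed livers. Slc16a6 fell by 1.32 on the log2 scale in WT Fasting (SE 0.23, adjusted p = 0.00704 in edgeR's quasi-likelihood test) and was lower by -1.07 in NAMPT LKO Fasting (SE 0.20, adjusted p = 0.00762). Slc16a5, a further member of the family, differed by -1.04 and -0.86 (adjusted p = 0.0468 and 0.0476 in the same test). Its NAMPT LKO Fasting livers overlapped the WT Refed livers, which were at 44.8 ± 14.0 CPM (SD).

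The direction was opposite for Slc16a7, a carrier with high affinity for pyruvate. It was higher in NAMPT LKO Fasting (76.2 ± 12.2 CPM, SD, n = 5) than in WT Refed livers (50.1 ± 5.13 CPM, n = 2), by 0.61 on the log2 scale (SE 0.16, adjusted p = 0.0340 in edgeR's quasi-likelihood test). In WT Fasting the difference from WT Refed was 0.40 (SE 0.17, adjusted p = 0.193), and that between NAMPT LKO Fasting and WT Fasting, 0.21 (95% interval -0.09 to 0.51), did not pass the test either. The RPKM ratio of Slc16a1 to Slc16a7 was 1.05 and 1.24 in the refed livers and 0.708 to 1.24 in the fasted livers, so the 2 carriers were at like levels. Relative to Slc16a6, Slc16a1 was 6.65 and 8.42 times as abundant per length in the refed livers and 16.2 to 28.4 times in the fasted livers. Bsg, the chaperone that brings Slc16a1 to the membrane, was at 340.3 ± 10.3 CPM in WT Refed (n = 2), 340.3 ± 9.14 CPM in WT Fasting (n = 3) and 328 ± 43.9 CPM in NAMPT LKO Fasting livers (n = 5). Slc16a4, Slc16a8, Slc5a8 and Emb were below the filter.

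The genes that supply and regulate ketogenesis were read from further lists. Of 15 genes of mitochondrial fat oxidation, none was called in WT Fasting relative to WT Refed, against 7.04% of all genes. All 15 estimates were above 0, and the median was 0.16 against 0.04 over all genes. Cpt1a, which controls fatty acid entry into mitochondria, averaged 412 CPM in WT Refed, 657 CPM in WT Fasting and 709 CPM in NAMPT LKO Fasting livers. It was called higher in NAMPT LKO Fasting relative to WT Refed (0.78, SE 0.18, adjusted p = 0.0200 in edgeR's quasi-likelihood test). There it was the 1 called gene of the 15, against 11.2% of all genes. In WT Fasting Cpt1a missed the threshold (0.67, SE 0.19, adjusted p = 0.0616 in the same test).

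Among 7 regulators, Fgf21, a hormone that fasting induces in liver, rose in WT Fasting relative to WT Refed from 0.858 to 6.51 CPM (2.92 on the log2 scale, SE 0.53, adjusted p = 0.00987 in edgeR's quasi-likelihood test). Its mean was 10.7 CPM in NAMPT LKO Fasting (3.63 relative to WT Refed, SE 0.53, adjusted p = 0.00231). Foxa2, a forkhead factor of the fasting liver, fell in WT Fasting from 75.4 to 35.4 CPM (-1.09, SE 0.27, adjusted p = 0.0350). Ppargc1a, a coactivator of fasting genes, was called in NAMPT LKO Fasting relative to WT Refed (1.76, SE 0.42, adjusted p = 0.0236) and was at 1.13 in WT Fasting (adjusted p = 0.149). In all, 1 regulator was called higher and 1 lower in WT Fasting relative to WT Refed. There 6 estimates were above 0 and 1 below. In NAMPT LKO Fasting relative to WT Refed, 3 regulators were called higher and none lower. Of all genes, 2.68% were called higher and 4.36% lower in the former comparison, and 4.65% and 6.58% in the latter. No regulator was called between the fasted groups, where Fgf21 differed by 0.71 (95% interval -0.10 to 1.52). The 10 listed genes of isoleucine and leucine breakdown, which also yields acetyl-CoA and acetoacetate, held no called gene in any comparison, with medians of 0.03, -0.05 and -0.04.

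For each member, the 3 genes with the most similar pattern were found by Pearson's r of log2(TMM CPM + 1) over the 10 livers, among genes averaging 5 CPM or more. These livers share groups and library-wide differences, and r is given as a description. Aacs was most like Rpn1 (r = 0.981), Ngdn (0.978) and Txlna (0.976). Acat1 was most like mt-Atp8, a gene of the mitochondrial genome (0.975), Sem1 (0.966) and Cyp2a22 (0.954), with NAMPT LKO liver 5 the highest in Acat1 and in mitochondrial share. Bdh2 was most like Thrsp, a gene of lipogenesis (0.954), Hsd3b2 (0.931) and Serpina3k (0.912). For Slc16a1 the nearest were Tpm1 (0.946), Acot3 (0.900) and Rragc (0.895), for Bdh1 Swap70 (0.926), Lamb3 (0.922) and Elovl5 (0.901), and for Oxct1 Gabbr2 (0.906), Itih1 (0.887) and Smo (0.848). No 2 members shared a gene among these.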

How the data were processed

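Polyadenylated liver RNA of 10 mice was sequenced. The submitters' processing notes name bcl2fastq, STAR 2.5.1a, Subread featureCounts 1.4.6-p5 and GRCm38. The strand setting is not given in the sources used here. The authors deposited, per gene and library, raw counts, CPM and RPKM. The deposited CPM and RPKM were recomputed from the deposited counts within rounding and were used as a check only. Libraries held 30603080 to 43434139 counts. Group labels came from sample titles. The 2 WT Refed libraries carry no number and were numbered by order, which is only a name.

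Ribosomal RNA genes (355) were removed and genes with at least 1 CPM in at least 1 library were kept (13444). Counts were fitted with edgeR 4.0.16 (R 4.3.3) by quasi-likelihood with TMM over all 3 groups, which share 1 estimate of the spread, and p-values were adjusted by Benjamini-Hochberg over all genes at 0.05. The study's methods name limma voomWithQualityWeights, which was run as an alternative with limma 3.58.1, as were DESeq2 1.42.0, edgeR's exact test, other scalings and filters, a GC correction and leaving out each library. For WT Fasting vs WT Refed, data were simulated in which 200 of 13444 genes, all averaging more than 1 CPM, were changed. The test recovered 44% of genes changed by 1 and 90% of those changed by 2 on the log2 scale, with 14 false calls among its calls. In the data 946 genes were called, and recovery with more changed genes was not examined. TMM RPKM is TMM CPM per kilobase of exon.

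The members and lists were chosen with earlier results of these data known. The genes named were the 6 members, Nampt, the partners Slc16a6, Slc16a7, Bsg, Acat2 and Hmgcs1, at most 2 called genes of each list in either comparison with WT Refed, and for each member the 3 genes of highest correlation. Outside this rule, listed genes below the filter, genes that overlap a member and a marker at 0 in every library are named. Ensembl identifiers were matched to symbols for 40340 of 41388 genes. Some pathway genes are not reported here.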

Additional observations from a re-analysis of the deposited data

Results flagged for a closer look

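In groups of 5 livers, a value was marked when its gap to the nearest other liver, divided by the group's range, passed Dixon's limit of 0.71. Of 19 such sets tested, 3 were marked, and chance marks 0.95. Acat1 was at 788 CPM in NAMPT LKO liver 5, against 478 to 566 CPM in the other 4 (gap 0.716). With scaling by library size alone it was at 661 CPM, and the gap was 0.520. With the GC trend removed the gap was 0.484. Slc16a1 was at 93.5 CPM in NAMPT LKO liver 1, against 66.7 to 74.3 CPM in the other 4 (gap 0.716), and the gap was 0.673 with library size alone. The mitochondrial share was 21.1% in NAMPT LKO liver 5 (gap 0.770). The TMM factor of that liver was 0.854, against 0.964 to 1.05 in the other 9. The part of these library differences in the Acat1 value was not tested.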

How the results depend on the processing

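The called member, Aacs, kept its call under every alternative other than leaving out either refed liver in the WT comparison. Its log2 difference was -1.70 without WT Refed 1 and -1.86 without WT Refed 2. The lone refed liver was then assumed to vary like the other groups. With voomWithQualityWeights, 2 members were called in NAMPT LKO Fasting vs WT Refed (Aacs and Bdh2). Leaving out 1 library gave 1 member in each case there, and 0 in NAMPT LKO Fasting vs WT Fasting under all alternatives. Of 372 alternative values of the 18 member results, 329 kept sign and call, 2 lost and 1 gained a call, and 40, all of values that were not called, changed sign.

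Genes called in WT Fasting vs WT Refed (946) became 3331 with voom, 1646 with DESeq2, 1516 with the GC trend removed, 1617 with only the 2 groups, and 107 to 2235 without 1 library (107 without WT Refed 2, 192 without WT Refed 1, 466 without WT Fasting 2, 538 without WT Fasting 1, 2235 without NAMPT LKO 5). For NAMPT LKO Fasting vs WT Refed the 1510 genes became 4281 with voom, and 226 to 2835 without 1 library (226 without WT Refed 2, 347 without WT Refed 1, 984 without NAMPT LKO 2, 2835 without NAMPT LKO 5). With library size alone, 25.7% of calls were higher against 38.1% in the former, and 26.1% against 41.4% in the latter. The 1 gene called in NAMPT LKO Fasting vs WT Fasting became 24 by the exact test, 21 by DESeq2, 2 with library size alone, 17 with genes of at least 1 count, 3 with filterByExpr, 3 with the GC trend removed, and 1 to 2 without 1 library. The causes were not tested.

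Same-numbered WT Fasting and NAMPT LKO livers are different mice, and no label gives the number a shared litter, batch or day. Their deviations from the group means correlated at 0.097, 0.176 and 0.131 over the 13444 genes tested, and at 0.106, 0.187 and 0.141 over the 12355 genes averaging 1 CPM or more. A criterion of 0.1 in every pair was therefore missed over the first set and met over the second. Each liver correlated best with its own number. With the number as a replicate block on livers 1 to 3, 0 genes were called, as in the same 6 livers without it, also 0. Nampt was then -2.78 (adjusted p = 0.0990) with the block and -2.87 (adjusted p = 0.264) without it. No member's call changed under the block.

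Signs that changed were as follows, on the log2 scale. In WT Fasting vs WT Refed, Oxct1 was -0.027 with voom and -0.015 with library size alone. In NAMPT LKO Fasting vs WT Refed it was -0.012 and -0.015. In NAMPT LKO Fasting vs WT Fasting, Bdh2 was -0.044 with voom, -0.0084 with library size alone, -0.0089 with the GC trend removed, and in the 6 livers -0.041 with and -0.059 without the block. Acat1 was -0.10, -0.020, -0.056, -0.10 and -0.10 under the same settings. Oxct1 was -0.00016 with library size alone and -0.0065 with the GC trend removed, Bdh1 was 0.011 with the GC trend removed, and Slc16a1 was 0.034 with the block and 0.015 without it. Leaving out 1 library gave -3.03 to -2.37 for Nampt in NAMPT LKO Fasting vs WT Fasting and -0.11 to 0.55 in WT Fasting vs WT Refed. In NAMPT LKO Fasting vs WT Fasting it gave -0.13 to 0.0031 for Bdh1, -0.12 to 0.20 for Bdh2 and -0.11 to 0.084 for Acat1. In the same comparison it gave -0.092 to 0.14 for Oxct1, -0.16 to 0.23 for Slc16a1 and, without a change of sign, -0.71 to -0.014 for Aacs. In WT Fasting vs WT Refed it gave -0.078 to 0.17 for Oxct1 and -0.0085 to 0.38 for Slc16a1, and in NAMPT LKO Fasting vs WT Refed -0.043 to 0.19 for Oxct1. Oxct1 and Bdh2 rested on 84 to 214 reads per library, and the effect of depth on their intervals was not tested.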
